A study of Mus musculus with 92 samples.

Results

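The comparison described here is between small intestinal organoids that had lost 1 of their 2 copies of Eif4g2 and organoids with both copies. Its members are the 4 libraries labelled flox/+ and the 4 labelled wild-type in the organoid and fetal spheroid count table, chosen by genotype and treatment labels alone, and they are 8 of the 92 libraries of the series. Organoids are cultures of mouse intestinal epithelium that form crypt-like and villus-like domains. The flox/+ organoids have the genotype Eif4g2(flox/+), Rosa26(CreER), so 1 allele carries loxP sites and can be recombined. The wild-type organoids have the genotype Eif4g2(+/+), Rosa26(CreER). The 4 flox/flox organoid libraries of the same table, with the genotype Eif4g2(flox/flox), Rosa26(CreER), are used beside them. All 12 cultures therefore carry the tamoxifen-dependent Cre recombinase CreER at Rosa26, a locus that is active in nearly all cell types. All 12 were exposed for 24 h to 0.5 µM 4-hydroxytamoxifen (4-OHT), which activates CreER, in ENR medium (EGF, Noggin and Rspondin), and were collected on day 6. Other cultures of the series serve as further measurements of Eif4g2 loss. Fetal intestinal spheroids, which are cultures of immature gut epithelium, gave 5 flox/+ lines, each with DMSO and with 4-OHT. A first organoid set gave 6 flox/flox libraries, 3 with DMSO and 3 with 4-OHT. The spheroids and the first set were also in ENR medium and collected on day 6. Where they received 4-OHT, it was 0.5 µM for 24 h.

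Several features of the labels limit the comparison. The flox/+ libraries are named after S9305, S9311, S9348 and S9349 and the wild-type libraries after CreER_only A to D. Whether A to D came from separate mice is not stated. No flox/+ or wild-type organoid library with DMSO is used, so the effect of genotype and differences between the sources of the lines cannot be told apart. Where the loxP sites lie is not stated. Reads from exons that remain on the recombined allele would count towards Eif4g2. The p-values measure the spread between these libraries, which may be partly technical.

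eIF4G2 (also called DAP5 or p97) is a member of the eIF4G family of translation initiation factors. eIF4G1 and eIF4G3 bridge the cap-binding protein eIF4E and the ribosome, whereas eIF4G2 lacks the region that binds eIF4E and is known to support initiation on a subset of mRNAs. The title of the series links it to the translation of histone modifiers in intestinal stem cells. The question here is what the mRNA of the organoids looked like when a single copy had been lost, at the level of transcript abundance. Protein and translation were not measured in these libraries.

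The 8 libraries held between 15368855 and 24736323 counted reads. Total reads (exact two-sided permutation p = 0.914), the share of mitochondrial reads (2.13% to 3.23%, p = 0.80) and the share taken by the 10 most abundant genes (p = 0.80) were tested with exact permutations, and none passed 0.05. The epithelial markers Epcam, a cell adhesion protein, and Cdx2, the intestinal homeobox factor, were present in all libraries, at 1224 to 1379 and at 107 to 127 CPM (read counts scaled to library size by edgeR's TMM factors). Of 18 immune markers 6 had 0 reads in all 8 libraries, and the list summed to between 3.44 and 5.15 CPM. Of 16 stromal and endothelial markers 7 had 0 reads, and the list summed to between 9.21 and 16.3 CPM. In bulk RNA, fewer cells of a type and less RNA per cell cannot be told apart. On the first principal component of the 500 most variable genes (27.5% of the variance), the flox/+ libraries lay between -15.6 and -2.04 and wild-type libraries 1 to 3 between 10.3 and 19.0. Wild-type library 4, at -4.15, lay among the flox/+ libraries. The calls without it are given below.

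Eif4g2 transcript fell in the flox/+ organoids, to a level between that of wild-type and that of flox/flox organoids. The gene lies on the minus strand at chr7:111067750-111083030 (GRCm38). The wild-type libraries gave 1257, 1324, 1335 and 1283 CPM (mean 1299.8 ± 36.2, SD, n = 4). The flox/+ libraries gave 790.3, 802, 821 and 834 CPM (812 ± 19.2, SD, n = 4). The lowest wild-type library thus stood far above the highest flox/+ library, and both groups were tight. The log2 fold change, flox/+ minus wild-type as in all such values below, was -0.68 (SE 0.07), with an adjusted p of 0.000415 in edgeR's quasi-likelihood test with Benjamini-Hochberg adjustment. The flox/+ level was 62.5% of the wild-type level, with a 95% confidence interval of 56.7% to 68.8% that lies above 50%. An exact two-sided permutation test on the 8 libraries gave p = 0.0286, the smallest value that the 70 arrangements can give. Leaving out each library in turn moved the log2 fold change between -0.69 and -0.67.

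The flox/flox organoids held less Eif4g2 transcript than either group, at 261, 269.8, 225 and 220.1 CPM (244 ± 25, SD, n = 4). The difference of flox/flox from flox/+ was -1.73 on the log2 scale (adjusted p = 3.9e-10, edgeR). It is named the loss of the second copy below, and it also compares different lines. In spheroids each flox/+ line with 4-OHT could be set against the same line with DMSO. Eif4g2 stood at 50%, 63.0%, 66.4%, 55.6% and 52.0% of the DMSO level in the 5 lines. All 5 lines were lower with 4-OHT. The spheroid fold change was -0.80 (adjusted p = 0.0159) with line as a block and -0.81 (adjusted p = 1.00) without it. In the first organoid set, flox/flox with 4-OHT against DMSO gave -2.37 (adjusted p = 6.14e-05, edgeR).

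**Figure D1:**
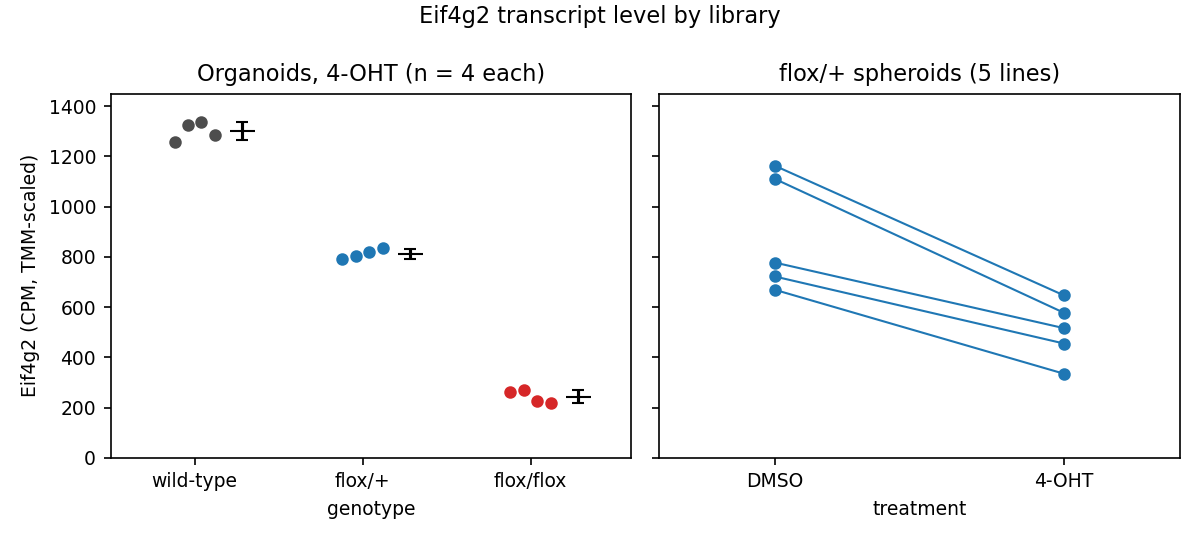
Eif4g2 level (CPM, vertical axes starting at 0) in each of the 12 organoid libraries by genotype, with the group mean and SD, and in the 5 flox/+ spheroid lines with DMSO and with 4-OHT, joined by line. Wild-type organoids sit between 1257 and 1335 CPM, flox/+ between 790.3 and 834 and flox/flox between 220.1 and 269.8, and all 5 spheroid lines are lower with 4-OHT.

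Beyond Eif4g2, few transcripts differed between the groups by the adjusted test. Of 14220 genes tested, 16 were called at an adjusted p under 0.05 (0.113%), 7 higher and 9 lower in flox/+. At an unadjusted p under 0.05 there were 1481 genes (10.4%), 760 higher and 721 lower. The median log2 fold change over all tested genes was -0.002. The loss of the second copy, measured against the same 4 flox/+ libraries, called 6660 of 14220 genes (46.8%). The mean root-mean-square distance between libraries on the log2 scale was 0.478 between flox/+ and wild-type, against 0.432 within flox/+ and 0.457 within wild-type. From flox/flox the distance was 0.841 to flox/+ and 0.851 to wild-type.

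The width of the intervals states what size of change this design leaves possible. The 95% interval of the log2 fold change lay within a 2-fold change in either direction for 84.1% of the tested genes, and within 1.5-fold for 67.8%. Among the 9778 genes whose log2 CPM averaged 3 or more, these shares were 97.9% and 91.2%. The median SE was 0.11.

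The number of calls depended on the libraries and the tool. It was 1 without wild-type library 3, 2 without flox/+ library 4, 3 without flox/+ library 3 and 3 without wild-type library 1. It was 5 without wild-type library 2, 6 without flox/+ library 2, 21 without wild-type library 4 and 32 without flox/+ library 1. The DESeq2 Wald test called 145 genes, 76 higher and 69 lower, the edgeR calls among them. Eif4g2 was called in all 8 fits that left out 1 library, the other genes were called in at most 5 of the 8, and Lpp in 0 of them. Without wild-type library 4, 10 of the 16 genes kept their call. Tstd1 (adjusted p = 0.0561), Rps2-ps10 (0.0521), Lamc1 (0.0618), Lpp (0.0773), Gm9800 (0.0795) and Serhl (0.0795) did not, and their fold changes kept their direction.

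**Figure D2:**
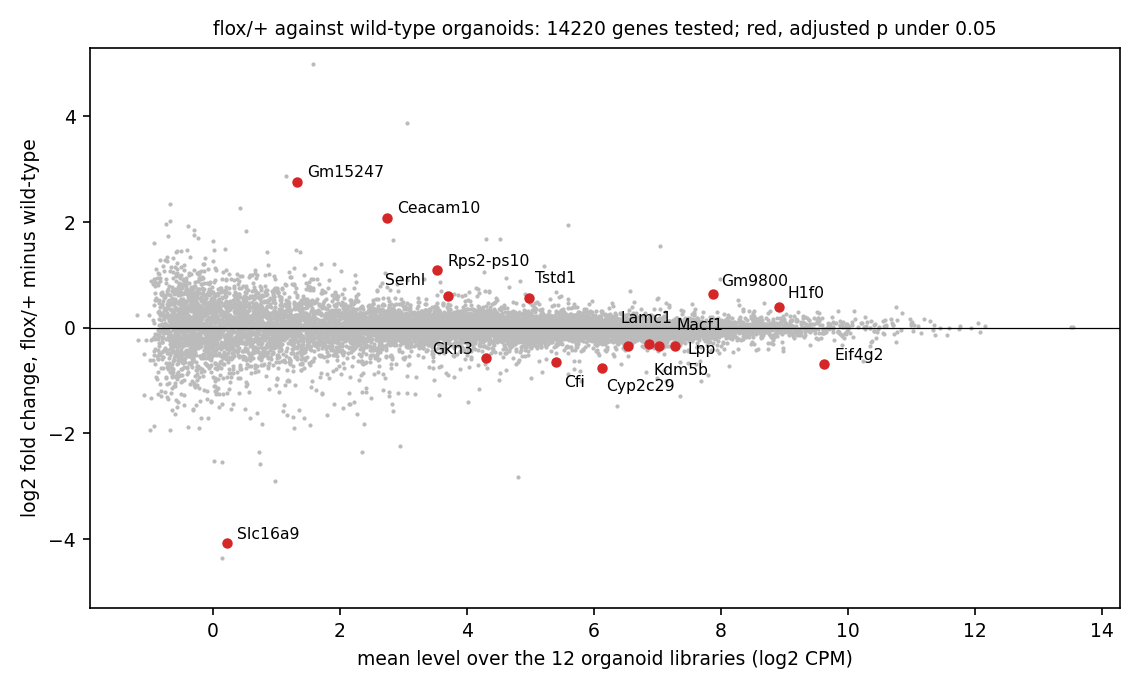
Log2 fold change of flox/+ against wild-type organoids (vertical axis) by mean log2 CPM over the 12 organoid libraries (horizontal axis) for the 14220 tested genes, with the 16 called genes marked. Most genes lie close to 0, Eif4g2 stands at -0.68 among highly expressed genes, and 1 gene with a fitted value of 8.87 (Gm21742) is drawn at 5.

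Of the 9 called genes that fell in flox/+, Eif4g2 apart, 2 encode secreted or blood-borne proteins, 1 a drug-metabolising enzyme, 1 a transporter, 1 a histone demethylase and 3 proteins of the cytoskeleton, adhesions or basement membrane. Cyp2c29, a cytochrome P450 of the 2C family that oxidises arachidonic acid and drugs, gave 98.6, 119.9, 126 and 90.6 CPM in wild-type libraries 1 to 4 and 69.5, 67.2, 61.0 and 58.5 CPM in flox/+. The groups did not overlap, which held for 977 genes or 6.87% of those tested and for all 16 called genes. The log2 fold change of Cyp2c29 was -0.77 (SE 0.10, adjusted p = 0.0146, edgeR). Its transcript is 88.4% identical to that of Cyp2c39 over 1314 bases, so reads may be shared.

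Gkn3, a gastrokine secreted by mucosal epithelium, gave 33.3, 36.9, 31.9 and 32.7 CPM in wild-type and 24.0, 22.6, 23.7 and 20.4 CPM in flox/+. Every flox/+ library was below every wild-type library, with a log2 fold change of -0.57 (SE 0.09, adjusted p = 0.0201). Cfi, complement factor I, a protease that inactivates complement fragments, gave 71.6, 83.8, 75.1 and 65.5 CPM in wild-type and 50.6, 51.4, 47.7 and 38.9 CPM in flox/+. It changed by -0.65 (SE 0.11, adjusted p = 0.0297), again with no overlap. In flox/flox libraries Gkn3 stood at 2.23 ± 0.26 CPM and Cfi at 5.13 ± 0.97 CPM (SD, n = 4), and for Cyp2c29 the level was 35.7 ± 3.10 CPM. All 3 genes were thus lower in flox/flox than in the flox/+ libraries in which they were called. In the first organoid set, flox/flox with 4-OHT against DMSO gave -5.14 for Gkn3 and -3.79 for Cfi. Cyp2c29 had -0.24 there (adjusted p = 0.775, edgeR).

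Slc16a9, a carrier of the monocarboxylate transporter family, was near the lower limit of detection. Wild-type libraries gave 2.65, 3.00, 2.22 and 1.84 CPM, and flox/+ libraries gave 0.198, 0.181, 0.170 and 0.0402 CPM. The fitted log2 fold change was -4.08 (SE 0.60, adjusted p = 0.0200), the largest in size among the called genes. The flox/flox libraries were uneven, at 0.134, 0.0662, 0.772 and 0.895 CPM.

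The other 4 called falls were small, and 3 of these genes were higher in flox/flox than in flox/+ organoids. Kdm5b, which removes methyl groups from lysine on histone H3, gave 97.7, 102, 102 and 109 CPM in wild-type and 83.7, 83.5, 78.8 and 79.3 CPM in flox/+, a change of -0.34 (SE 0.05, adjusted p = 0.0265). Macf1, a giant linker of microtubules and actin, stood at 145 ± 10.1 CPM in wild-type and 113 ± 4.36 CPM in flox/+ (SD, n = 4), a change of -0.35 (adjusted p = 0.0297). Lamc1, the laminin gamma 1 chain of basement membranes, stood at 109 ± 4.24 and 88.3 ± 5.73 CPM, a change of -0.31 (adjusted p = 0.0452). Lpp, a LIM-domain protein of focal adhesions, stood at 186 ± 15.2 and 147 ± 2.20 CPM, a change of -0.34 (adjusted p = 0.0482). The flox/flox libraries stood at 95.2 ± 4.48 CPM for Kdm5b, 134 ± 5.83 for Macf1, 153 ± 3.00 for Lamc1 and 133 ± 8.11 for Lpp. Against flox/+, the flox/flox difference was +0.23 for Kdm5b (adjusted p = 0.00280), +0.24 for Macf1 (adjusted p = 0.00369) and +0.80 for Lamc1 (adjusted p = 4.2e-08), and for Lpp it was -0.14 (adjusted p = 0.0801).

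Among the 7 called rises, Ceacam10 was the largest in a protein-coding gene. Ceacam10, a secreted member of the carcinoembryonic antigen family, gave 9.11, 10.2, 16.3 and 23.9 CPM in flox/+ and 3.76, 3.40, 3.15 and 3.87 CPM in wild-type. The flox/+ libraries were spread over a wide range, all above wild-type. Its log2 fold change was 2.08 (SE 0.29, adjusted p = 0.0200). In flox/flox it was lower than in both groups, at 1.07, 0.927, 0.772 and 0.358 CPM. Ceacam10 shares 85.5% identity with Ceacam1 over 495 bases, and Ceacam1 itself had a log2 fold change of 0.09 (adjusted p = 0.775). Ceacam10 lies on the chromosome of Eif4g2, at chr7:24777206-24784657, and was the only called gene there besides Eif4g2 itself.

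H1f0 encodes the linker histone H1.0, which is known from differentiated and resting cells. It gave 562, 620.0, 609 and 571 CPM in flox/+ and 417, 441, 460.4 and 474 CPM in wild-type. The groups were apart, with a log2 fold change of 0.40 (SE 0.07, adjusted p = 0.0297). Tstd1, a small sulfurtransferase-like protein, gave 40.1, 40.7, 40.7 and 36.6 CPM in flox/+ and 24.0, 28.6, 30.0 and 23.8 CPM in wild-type (log2 fold change 0.57, SE 0.09, adjusted p = 0.0297). Serhl, a serine hydrolase-like protein, gave 16.2, 15.5, 15.1 and 17.9 CPM in flox/+ and 9.67, 12.7, 9.85 and 10.1 CPM in wild-type (log2 fold change 0.61, SE 0.11, adjusted p = 0.0482). None of these 3 overlapped between the groups. Each shares part of its locus with another gene, Tstd1 with Usf1 over 271 bases on the same strand and, on the opposite strand, Serhl with Rrp7a over 3242 bases and H1f0 with Gm49544 over 163 bases. The strand setting of the counting is not given in the sources used here, so their counts are uncertain. The flox/flox libraries stood at 412 ± 34.3 CPM for H1f0, 27.8 ± 2.76 for Tstd1 and 11.8 ± 0.68 for Serhl, beside wild-type means of 448, 26.6 and 10.6 CPM. These levels were lower than in flox/+, with differences from flox/+ of -0.52 for H1f0, -0.51 for Tstd1 and -0.46 for Serhl (adjusted p = 1.78e-05, 0.000409 and 0.00306, edgeR). These differences use the same flox/+ libraries in which the genes were called as higher. The first organoid set, which shares no library with them, gave -0.51 for H1f0 with 4-OHT against DMSO (adjusted p = 0.0156, edgeR). There Tstd1 had -0.61 (adjusted p = 0.00622) and Serhl -0.30 (adjusted p = 0.117).

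Another 2 called rises were in processed pseudogenes, intron-less copies of mRNAs, whose counts may hold reads of the parent gene. Gm9800 (chr14:8800000-8800335, minus strand, GRCm38) copies the coding sequence of Ptma, which encodes prothymosin alpha, a small acidic nuclear protein. The first bases of both are shown, because they let a reader see how little separates their reads. Capitals mark where the sequences differ, 2 inserted bases and 1 substitution in 334 aligned bases, all within the stretch shown. Both are from the GENCODE vM21 transcripts (GRCm38), 5′ to 3′ from the start codon of Ptma.
Gm9800: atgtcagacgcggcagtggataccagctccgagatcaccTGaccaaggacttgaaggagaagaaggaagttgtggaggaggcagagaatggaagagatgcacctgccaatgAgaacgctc
Ptma: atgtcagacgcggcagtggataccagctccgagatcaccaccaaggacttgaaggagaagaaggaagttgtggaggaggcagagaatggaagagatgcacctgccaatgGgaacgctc

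Gm9800 gave 281, 364, 399.7 and 342 CPM in flox/+ and 239, 239.9, 212 and 199 CPM in wild-type, a log2 fold change of 0.64 (SE 0.11, adjusted p = 0.0482). Ptma gave 1996, 2373, 2508 and 2341 CPM in flox/+ and 2042, 1966, 1742 and 1886 CPM in wild-type, a log2 fold change of 0.27 (SE 0.08, adjusted p = 0.246). The pseudogene's groups were apart, and those of Ptma overlapped. Outside the differing bases a read of one cannot be told from a read of the other. The other pseudogene, Rps2-ps10, is 99.4% identical to the ribosomal protein gene Rps2 over 934 of its 965 bases. It gave 20.1, 14.7, 10.9 and 12.7 CPM in flox/+ and 7.21, 7.28, 5.46 and 7.41 CPM in wild-type (log2 fold change 1.09, SE 0.18, adjusted p = 0.0297). Rps2 had a log2 fold change of 0.11 (adjusted p = 0.472). In flox/flox Rps2-ps10 stood at 13.2 ± 2.12 CPM, Gm9800 at 135 ± 16.9 CPM and Ptma at 1319 ± 141 CPM (SD, n = 4). Against flox/+, flox/flox differed by -0.15 in Rps2-ps10 (adjusted p = 0.529) and by -1.36 in Gm9800 (adjusted p = 5.9e-07, edgeR). The first organoid set held Rps2-ps10 at 66.9 CPM with DMSO and 59.1 CPM with 4-OHT.

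The remaining called rise, Gm15247, belongs to a block of genes at the distal ends of the X and Y chromosomes. It is an antisense transcript at chrX:169985801-169986939 within Mid1, which encodes a ubiquitin ligase bound to microtubules. All 1139 bases of the Gm15247 locus lie inside Mid1 on the opposite strand. Because the strand setting of the counting is not given, the count of Gm15247 may hold reads of Mid1. Gm15247 gave 2.97, 2.35, 2.15 and 5.27 CPM in flox/+ and 0.493, 0.441, 0.648 and 0.253 CPM in wild-type (log2 fold change 2.77, SE 0.42, adjusted p = 0.0201). In flox/flox it gave 1.94, 5.83, 3.56 and 2.81 CPM, a range that covers the flox/+ values. This end of the X chromosome is where the sex chromosomes share sequence, and copies there are known to vary between mouse strains and individuals. The neighbouring genes were examined after the value of Gm15247 was seen.

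Of 8 tested genes in these distal ends, 6 were higher in flox/+ at an unadjusted p under 0.05 and 0 were lower, and 4 were higher with no overlap of the groups. Both counts include Gm15247, whose value led to the others. Among the 8, G530011O06Rik, Gm15726 and Gm15247 lie within Mid1, and Mid1-ps1 is a near copy of Mid1. Reads may be shared between them, so the 8 genes are not separate measurements. Over all 14220 tested genes, 760 were higher at such a p and 470 were higher with no overlap. Gm21742, a Y-linked pseudogene, had 47, 23, 30 and 166 reads in the flox/+ libraries and 0 reads in all 4 wild-type libraries. The 4 flox/flox libraries had 16, 78, 166 and 90 reads, and all 22 spheroid libraries had between 8 and 119. Pooled over the group, flox/+ was at least 91.1-fold higher than a wild-type floor of 3 reads over the group. Mid1-ps1, a Y-linked copy that is 99.6% identical to Mid1 over 1142 bases, gave 1.85, 1.93, 9.78 and 15.1 CPM in flox/+ and 0.493, 0.617, 0.0463 and 0.887 CPM in wild-type (log2 fold change 3.88, adjusted p = 0.244). Mid1 itself had a log2 fold change of 1.68 (adjusted p = 0.418), and Gm21887 one of -0.69 (adjusted p = 0.859). Apart from Gm15247 none of the 8 was called. Genotype and the source of the lines cannot be told apart here: the wild-type lines differ from all flox/+, flox/flox and spheroid lines in holding no read of Gm21742.

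**Figure D3:**
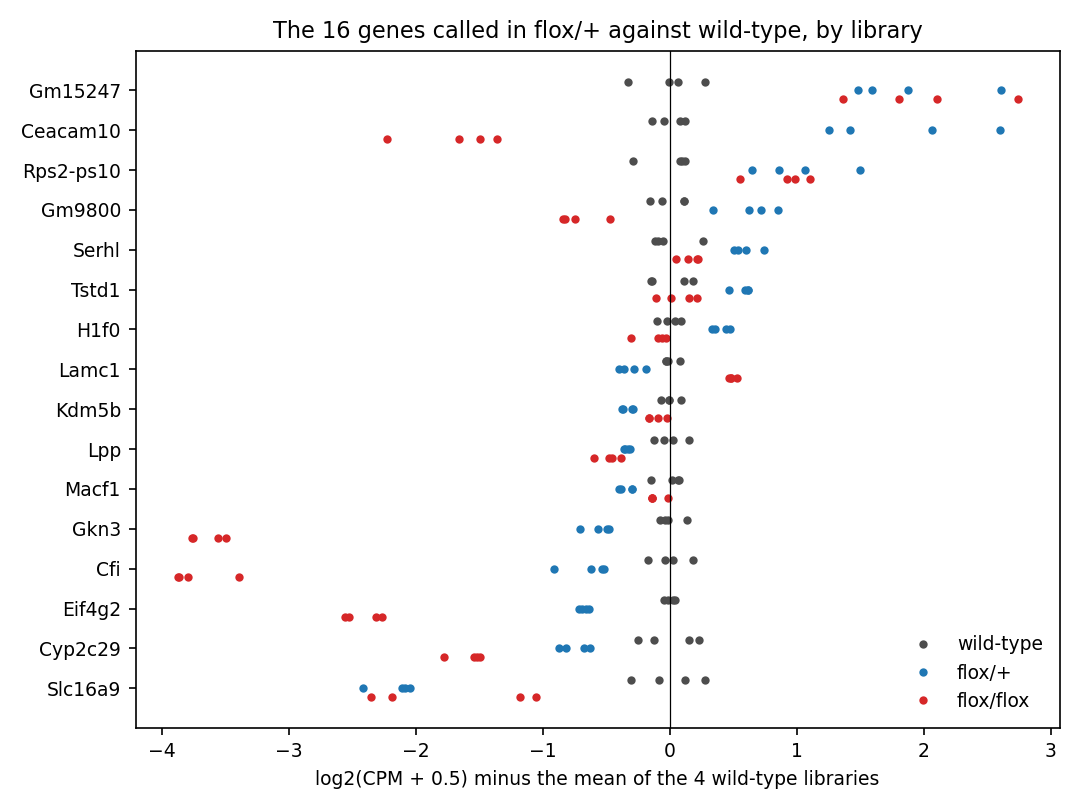
Level of the 16 called genes in the 4 wild-type, 4 flox/+ and 4 flox/flox organoid libraries, as log2(CPM + 0.5) minus the mean of the wild-type libraries of that gene (horizontal axis). In every one of the 16 genes the flox/+ and wild-type libraries do not overlap. The flox/flox libraries all lie below those of flox/+ for Eif4g2, Gkn3, Cfi, Cyp2c29, Lpp, Ceacam10, H1f0, Tstd1, Serhl and Gm9800.

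Some genes differed by more than most called genes without passing the adjusted test. Cym, chymosin, an aspartic protease of the infant stomach, gave 73.4, 98.8, 82.1 and 34.1 CPM in wild-type and 9.31, 20.6, 7.64 and 3.78 CPM in flox/+. The groups did not overlap, and the log2 fold change was -2.83 (SE 0.48, adjusted p = 0.0863). Without wild-type library 4 Cym had -3.06 and was called (adjusted p = 0.0487, edgeR), as it was in 2 of the 8 fits that left out 1 library. In flox/flox Cym had no reads in 3 libraries and 0.0662 CPM in the other one. Cd44, a hyaluronan receptor and known Wnt target of crypt base cells, gave 147, 183, 184 and 174 CPM in flox/+ and 37.9, 43.6, 37.6 and 118 CPM in wild-type. Its log2 fold change was 1.55 (SE 0.35, adjusted p = 0.166), and wild-type library 4 stood close to the flox/+ range. Without wild-type library 4 the log2 fold change of Cd44 was 2.11 with an adjusted p of 1.04e-07 (edgeR). In flox/flox Cd44 gave 167, 182, 158 and 142 CPM, close to flox/+ (difference -0.08, adjusted p = 0.859).

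By the rule that picked Cym and Cd44 for their size, Fam20a, a pseudokinase of the secretory pathway, had a log2 fold change of 0.92 (adjusted p = 0.201). Insc, which links polarity proteins to the mitotic spindle, had 0.90 (adjusted p = 0.124). On the other side stood Tmem184c at -0.93 (adjusted p = 0.186), the carbonic anhydrase Car2 at -0.89 (adjusted p = 0.416) and Agtpbp1, an enzyme that trims glutamates from tubulin, at -0.75 (adjusted p = 0.136). These 5 genes, like Cym and Cd44, were picked among genes at an unadjusted p under 0.05 whose groups do not overlap. Of the 5, Insc lies within 5 Mb of Eif4g2, at chr7:114743694-114850383.

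The markers of the intestinal cell types gave no called member. Of 20 stem cell genes tested, 7 were higher and 13 lower, and the median log2 fold change was -0.02. At an unadjusted p under 0.05, 1 was higher and 4 lower (25% of the list, against 10.4% of all tested genes). With no overlap of the groups, 1 was higher and 4 lower (25%, against 6.87% of all tested genes). Lgr5, the Wnt-amplifying receptor that marks crypt stem cells, gave 277, 334, 342 and 327 CPM in flox/+ and 291, 336, 379 and 436 CPM in wild-type. Olfm4, a secreted stem cell marker, stood at 5679 ± 804 CPM in flox/+ and 6008 ± 664 CPM in wild-type (SD, n = 4). Both overlapped, with log2 fold changes of -0.17 (adjusted p = 0.748) and -0.08 (adjusted p = 0.909). In flox/flox Lgr5 stood at 178 ± 38.9 CPM and Olfm4 at 1242 ± 326 CPM. The Wnt-related Tnfrsf19 had -0.68 (adjusted p = 0.313), and its groups did not overlap.

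Markers of secretory and tuft cells had no called member either. The median was -0.05 over 19 Paneth cell genes, -0.07 over 20 goblet cell genes, 0.05 over 25 enteroendocrine genes and -0.16 over 15 tuft cell genes. Lyz1, the Paneth cell lysozyme, stood at 1823 ± 349 CPM in flox/+ and 1764 ± 186 CPM in wild-type (log2 fold change 0.05, adjusted p = 0.943). Muc2, the main gel-forming mucin, stood at 61.8 ± 10.9 and 83.0 ± 15.7 CPM (-0.43, adjusted p = 0.313). Atoh1, the transcription factor that specifies secretory cells, gave 18.9, 14.8, 16.3 and 11.7 CPM in flox/+ and 12.1, 8.69, 10.2 and 9.31 CPM in wild-type (0.61, adjusted p = 0.201). Only 1 flox/+ library was within the reach of wild-type. Chga, a granin of hormone-producing cells, had -0.15 (adjusted p = 0.852), and Dclk1, the tuft cell kinase, -0.37 (adjusted p = 0.479).

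Absorptive and fetal-like genes had medians below 0, with wide spread between cultures and no called member. Over 28 enterocyte genes the median was -0.18, with 6 higher and 22 lower. Alpi, intestinal alkaline phosphatase, gave 277, 174, 125 and 91.4 CPM in flox/+ and 343, 348, 409.8 and 139 CPM in wild-type (-0.90, SE 0.56, adjusted p = 0.621). Of 18 fetal-like and regenerative genes 17 were lower, 1 at an unadjusted p under 0.05, and 4 were lower with no overlap, with a median of -0.54. Over all 14220 tested genes, 721 were lower at such a p and 507 were lower with no overlap. Clu, a chaperone that marks regenerating cells, gave 519, 454, 245 and 159 CPM in wild-type and 227, 169.7, 144 and 147 CPM in flox/+ (-1.0, SE 0.49, adjusted p = 0.521). Msln, mesothelin, had -1.48 (SE 0.76, adjusted p = 0.539), and Ly6a, the Sca-1 antigen, -0.39 (adjusted p = 0.862). The summed level of the list ran from 1127 to 2278 CPM over the wild-type libraries and from 1128 to 1274 CPM over flox/+, so the wild-type cultures differed among themselves by more than the flox/+ cultures did. Over 18 pan-epithelial genes the median was -0.001.

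Proliferation, p53 and stress response genes had medians within 0.12 of 0. The median was 0.05 over 25 proliferation genes (19 higher and 6 lower), -0.08 over 20 p53 targets (2 higher and 18 lower) and 0.12 over 24 genes of the ATF4-driven integrated stress response (18 higher and 6 lower). At an unadjusted p under 0.05 there were 2, 1 and 2 genes in these lists, and 0 were called. At that p the shares were 8%, 5% and 8.3%, against 10.4% of all tested genes. Mki67, a marker of cycling cells, stood at 482 ± 27.1 CPM in flox/+ and 511 ± 38.8 CPM in wild-type (-0.08, adjusted p = 0.793). Cdkn1a, the p53 target p21, stood at 99.9 ± 15.3 and 97.8 ± 17.9 CPM (0.03, adjusted p = 0.970). Atf4, the transcription factor of the stress response, stood at 238 ± 19.9 and 229 ± 15.1 CPM (0.06, adjusted p = 0.807), and Ddit3 had -0.11 (adjusted p = 0.864). Interferon-stimulated genes had a median of 0.19 over 14 tested. Of these 3 were higher at an unadjusted p under 0.05 (21.4%, against 10.4% of all tested genes in either direction), and 0 lower. Only 2 of 8 genes of the MHC class II list could be tested.

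The other initiation factors showed no called change. eIF4G1, the main eIF4G, gave 1062, 1065, 1056 and 1054 CPM in flox/+ and 1123, 1094, 1078 and 1028 CPM in wild-type. The log2 fold change of Eif4g1 was -0.03 (SE 0.06, adjusted p = 0.902), and that of Eif4g3 was -0.11 (SE 0.05, adjusted p = 0.472). Over 20 genes of the eIF4F complex and its regulators the median was 0.06, and over 36 other initiation factors it was 0.01. Of the 20, 3 were higher and 1 lower at an unadjusted p under 0.05 (20%, against 10.4% of all tested genes). With no overlap 3 were higher and 0 lower (15%, against 6.87% of all tested genes). Of the 36, 0 had such a p and 2 were lower with no overlap (5.6%). The largest value among eIF4F regulators was 0.29 in Eif4ebp1, a repressor that binds eIF4E (adjusted p = 0.386). Among 8 mRNAs known from earlier work as depending on eIF4G2 for translation, the median was -0.01, from -0.22 in Apaf1, a core protein of the apoptosome, to 0.25 in Myc. Transcript abundance does not measure their translation.

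Of 38 histone modifiers tested, 9 were higher and 29 lower, and 1 was called, Kdm5b (0.113% of all tested genes were called). At an unadjusted p under 0.05, 0 were higher and 9 lower (23.7% of the list, against 10.4% of all genes), and 8 were lower with no overlap (507 of the 14220 genes), with a median of -0.06. Crebbp, the acetyltransferase CBP, gave 67.8, 70.5, 77.6 and 69.0 CPM in wild-type and 63.0, 57.6, 53.2 and 62.4 CPM in flox/+ (-0.27, SE 0.06, adjusted p = 0.136). The methyltransferases Kmt2a and Kmt2d had -0.42 (adjusted p = 0.107) and -0.32 (adjusted p = 0.291). Ep300, the acetyltransferase p300, gave 127, 116, 103 and 110.3 CPM in flox/+ and 114, 122, 128 and 129 CPM in wild-type (-0.11, SE 0.07, adjusted p = 0.578). Loss of the second copy gave values of the opposite sign for 3 of them, 1.20 for Crebbp (adjusted p = 3.9e-09), 1.52 for Ep300 (adjusted p = 8.7e-10) and 0.65 for Kmt2d (adjusted p = 0.000167). That comparison shares the flox/+ libraries with the first one. Loss of both copies in the first organoid set, which shares no library, gave 1.19 for Crebbp (adjusted p = 0.000338) and 1.31 for Ep300 (adjusted p = 0.000203, edgeR). Kmt2d had 0.61 there (adjusted p = 0.00261) and Kmt2a 0.29 (adjusted p = 0.0372).

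**Figure D4:**
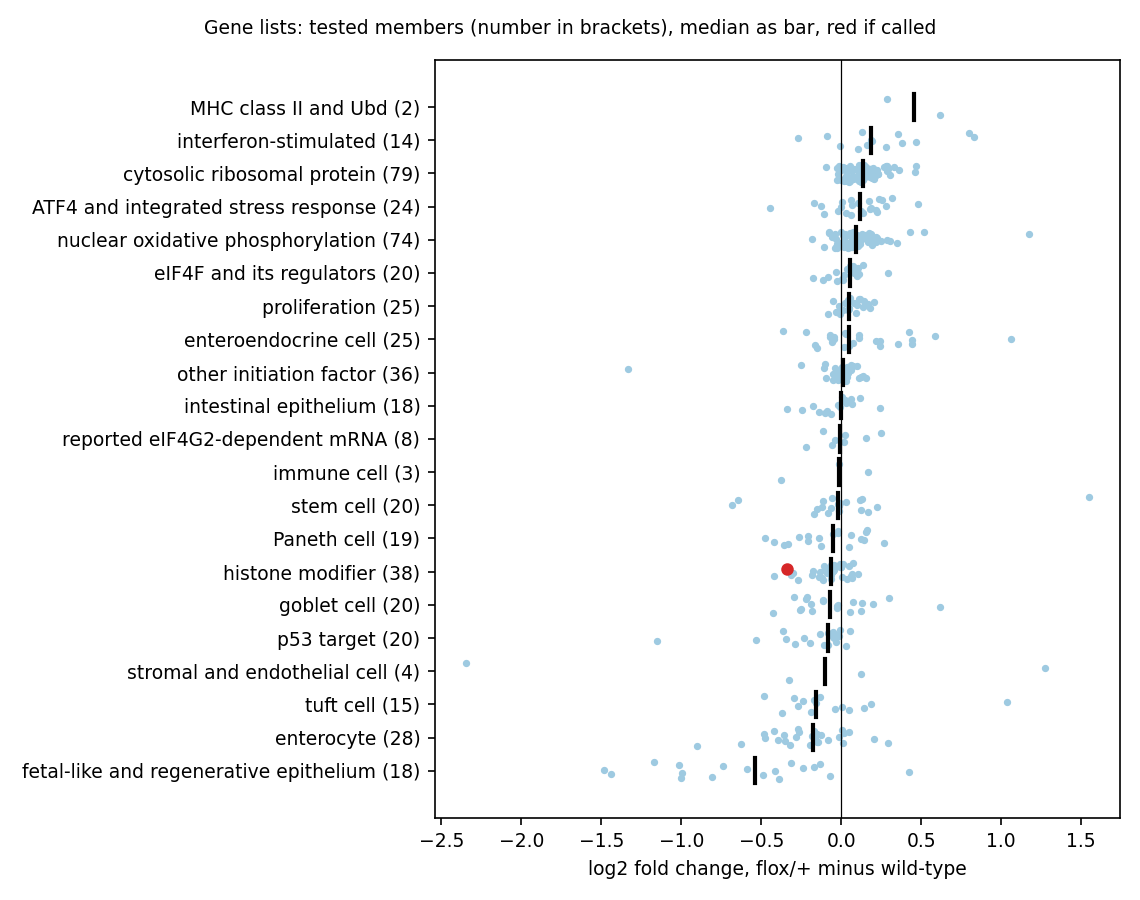
Log2 fold change of flox/+ against wild-type organoids (horizontal axis) for each tested gene of each list, with the median of the list. Medians lie near 0 for most lists, at -0.54 for the fetal-like list, and single genes such as Cd44 (1.55) lie apart from their list.

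A property that ran with the comparison over many genes was gene length, by the exonic length of the annotation. The tested genes were split by length into 4 classes of 3555. Among the shortest class (up to 2321 bases), 331 were higher and 84 lower at an unadjusted p under 0.05. In the longest class (from 6305 bases) 76 were higher and 389 lower. The median log2 fold change went from 0.05 over 0.01 and -0.01 to -0.04 across the 4 classes, from short to long. The 7 called rises had a median length of 965 bases and the 9 called falls 8272 bases, against 3970 bases for all tested genes. The histone modifiers have a median length of 7911.5 bases.

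In each library the log2 level of each gene was taken relative to its mean over the 8 libraries, and the median of the shortest class was subtracted from that of the longest. It ran from -0.0914 to -0.0333 in flox/+, from 0.0154 to 0.0862 in wild-type and from 0.102 to 0.170 in flox/flox. The flox/+ and wild-type libraries did not overlap in it (exact two-sided permutation p = 0.0286, adjusted over 4 library measures 0.114). A pair of lists of mostly short genes was added after the values were seen, and is a description of them. Of 79 cytosolic ribosomal protein genes 28 were higher at an unadjusted p under 0.05 and 0 lower, with a median of 0.13. Of 74 nuclear genes of oxidative phosphorylation 23 were higher and 0 lower, with a median of 0.09. Over all 14220 tested genes, 760 were higher at such a p. No gene of the 2 lists was called.

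When the length trend of each library was removed before the test, an alternative chosen after seeing the data, 7 genes were called, all among the 16. They were Eif4g2 (-0.63, adjusted p = 0.000287), Cyp2c29, Cfi, Gkn3, Slc16a9, Ceacam10 and Gm15247. In that fit Kdm5b had -0.25 (adjusted p = 0.199), Macf1 -0.20 (adjusted p = 0.275), Lpp -0.23 (adjusted p = 0.248), Lamc1 -0.28 (adjusted p = 0.0999) and H1f0 0.36 (adjusted p = 0.0999). Of the histone modifiers 6 were then lower and 1 higher at an unadjusted p under 0.05, with a median of -0.03. For ribosomal proteins the counts were 16 higher and 1 lower, and for oxidative phosphorylation 13 and 1. Among all tested genes, 349, 321, 295 and 395 had such a p in the 4 length classes of 3555, from short to long. The part of RNA quality or library preparation in the length trend was not tested.

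**Figure D5:**
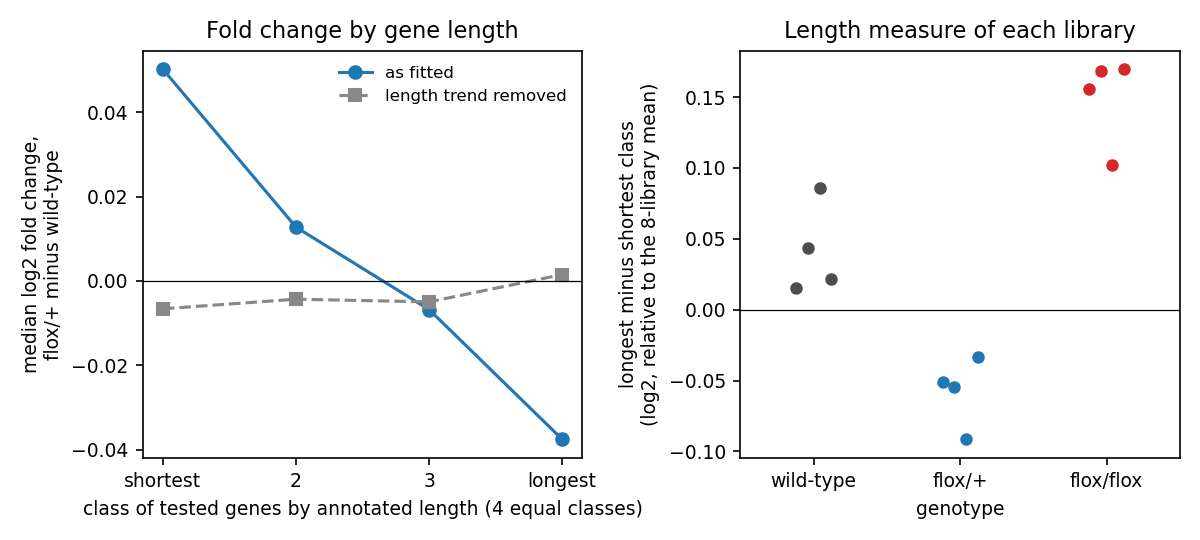
Left, the median log2 fold change of flox/+ against wild-type in 4 classes of gene length, as fitted (0.05 in the shortest class to -0.04 in the longest) and after removal of the length trend. Right, the level of the longest against the shortest class (log2) in each library by genotype, negative in the 4 flox/+ libraries and positive in the 8 others.

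The called genes can be read beside the other comparisons of Eif4g2 loss. In flox/+ spheroids, 4-OHT against DMSO called 0 of 15032 genes (0%) by edgeR, with 15 genes at an unadjusted p under 0.05, and the DESeq2 Wald test also called 0. With the 5 lines as blocks, 1 of 13933 genes was called (0.00718%), Eif4g2, with 1003 at an unadjusted p under 0.05. In those blocked spheroid fits Cyp2c29 had -0.54 (adjusted p = 0.674), Cfi -0.28 (adjusted p = 0.841), Gkn3 0.22 (adjusted p = 0.799), Slc16a9 0.44 (adjusted p = 0.907), Ceacam10 -0.18 (adjusted p = 0.975) and H1f0 0.03 (adjusted p = 0.980). Whether these values differ from those in organoids was not tested. Spheroids are compared within a line, and the organoids are compared between lines.

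In the first organoid set, where flox/flox lines lost both copies and 5422 of 15297 genes were called (35.4%), Cfi had -3.79 (adjusted p = 0.000203), Gkn3 -5.14 (adjusted p = 0.000475) and Ceacam10 -3.97 (adjusted p = 0.00156). Cyp2c29 had -0.24 (adjusted p = 0.775) and Slc16a9 -1.50 (adjusted p = 0.183). Lamc1 had 1.45 (adjusted p = 0.000203), Macf1 0.84 (adjusted p = 0.00102) and Kdm5b -0.002 (adjusted p = 0.987). Loss of the second copy in the second set gave -3.34 for Gkn3 (adjusted p = 9.3e-11), -3.19 for Cfi (adjusted p = 6.7e-10) and -0.84 for Cyp2c29 (adjusted p = 1.53e-05). For Ceacam10 it gave -4.26 (adjusted p = 5.9e-07). In the organoid comparisons Gkn3 and Cfi were lower in flox/+ than in wild-type, in flox/flox than in flox/+, and in the first set. Ceacam10 was higher in flox/+ than in wild-type, and lower in flox/flox and in the first set. The flox/flox difference uses the flox/+ libraries in which Ceacam10 was called, and flox/+ and wild-type lines differ in source. Within spheroid lines Gkn3 had 0.22, Cfi -0.28 and Ceacam10 -0.18, none of them called.

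Genes near Eif4g2 on chromosome 7 were looked at because the floxed allele and the wild-type allele can differ in the flanking sequence. Of 51 tested genes within 5 Mb 0 were called and 10 had an unadjusted p under 0.05 (19.6%, 6 higher and 4 lower). Among these 10 was Insc, named above for the size of its rise (log2 fold change 0.90, adjusted p = 0.124, edgeR). Within 20 Mb 0 of 320 were called and 36 had such a p (11.3%), close to the 10.4% of all genes. The nearest tested neighbours were Ctr9, a subunit of the PAF transcription complex, at -0.02 (adjusted p = 0.952) and 1700012D14Rik at 0.45 (adjusted p = 0.698). Next to these came Mrvi1 at 0.55 (adjusted p = 0.576) and the deubiquitinase Usp47 at -0.08 (adjusted p = 0.565).

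The genes that varied most within the groups show how far cultures of 1 genotype can differ. Gm43305 gave 445, 811, 95.7 and 284 CPM in flox/+ and 251, 655, 233 and 0.253 CPM in wild-type. Defa17, a Paneth cell defensin, gave 107, 81.6, 19.8 and 69.1 CPM in flox/+ and 21.3, 46.3, 50.8 and 113 CPM in wild-type. Cybrd1, a ferric reductase of the gut, ran from 23.6 to 138 CPM in flox/+ and from 12.8 to 84.4 CPM in wild-type. The groups overlapped in each of these 3 genes. Gm42047 (28.3 to 166 CPM in flox/+ and 162 to 317 CPM in wild-type) and Msln (23.5 to 51.5 and 20.2 to 159.8 CPM) completed the 5 most variable genes.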

How the data were processed

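RNA had been poly(A)-selected and made into directional (dUTP) libraries, per the labels' protocols. HISAT2 2.0.5 and the builds GRCm38 and mm10 are named in the submitters' processing notes. The counting program, annotation and strand setting are not given in the sources used here. The values are raw read counts per gene as the authors deposited them, with no normalization, and 0 count columns had no sample. Of 14220 tested genes, 14215 had an identifier in GENCODE vM21 and 13635 the same coordinates there.

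The 12 organoid libraries were fitted in edgeR 4.0.16 (R 4.3.3, limma 3.58.1) with 3 groups and 9 residual degrees of freedom, using TMM scaling after filterByExpr, the quasi-likelihood test with robust dispersions, and Benjamini-Hochberg adjustment over all tested genes. Calls required an adjusted p under 0.05. Spheroids and the first organoid set were fitted separately. Scripts were tested on simulated data. CPM are TMM-scaled, and log2 CPM of distances, components and length measures used a prior count of 2. Where lines are blocks, they come from the library names.

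Named genes were Eif4g2, all called genes, 20 fixed markers, the highest and lowest member of each list, the 5 largest rises and 5 largest falls at an unadjusted p under 0.05 whose log2 CPM averaged 3 or more, with no overlap and no predicted-gene name, the 2 nearest neighbours on each side of Eif4g2, the 5 most variable genes whose log2 CPM averaged 5 or more, and the parents of pseudogenes. The text gives a selection of these. The distal X and Y genes lie from 169600000 on X and 90700000 on Y, with at least 10 reads. Members and lists were chosen with earlier results of these data known.

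Alternatives were DESeq2 1.42.0 (size factors and Wald test), no low-count filter beyond 1 read, other libraries in the fit, a replicate block, leaving out each library and, added after seeing the data, removal of a length trend (lowess span 0.5). No pair of organoid libraries of 1 group looked like a duplicate. The lowest chi-square per degree of freedom was 6.56 among flox/+ and wild-type pairs and 5.84 among flox/flox pairs.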

Additional observations from a re-analysis of the deposited data

Results flagged for a closer look

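Single libraries stood apart from the 3 others of their group, by a gap that took up most of the group's range, in 7 of 112 groups of values looked at (6.25%), and chance alone gives about 1 in 20. Cd44 in wild-type library 4 was 118 CPM against 37.6 to 43.6 in the others. Tstd1 in flox/+ library 4 was 36.6 CPM against 40.1 to 40.7. Rps2-ps10 in wild-type library 3 was 5.46 CPM against 7.21 to 7.41. Lamc1 in wild-type library 1 was 116 CPM against 107 to 108, and Serhl in wild-type library 2 was 12.7 CPM against 9.67 to 10.1. In flox/+ library 1, Atf4 was 268 CPM against 226 to 230.2, and Ddit3 was 7.86 CPM against 6.84 to 7.0.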

How the results depend on the processing

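The 16 calls of flox/+ against wild-type became 17 with DESeq2 size factors and 14 with only the 8 libraries compared, 9 of them among the 16. In the latter fit Ceacam10 had an adjusted p of 0.0543, and Macf1, Lpp, Lamc1, Gm9800, Rps2-ps10 and Serhl were not called either. They became 145 with the DESeq2 Wald test, 60 with no low-count filter, 7 after removal of the length trend, and 3 (Cd44, Gm21742 and Gm15247) with all libraries of the table in the fit, where Eif4g2 had -0.69 (adjusted p = 1). Leaving out 1 library gave from 1 to 32 calls. Same-numbered residuals correlated from -0.05 to 0.14, and 2 of 4 libraries correlated best with their own number. The mitochondrial share was 2.44%, 2.52%, 2.90% and 3.05% in flox/+ libraries 1 to 4 and 2.13%, 2.33%, 3.23% and 2.97% in wild-type. Whether the replicate numbers mark a shared batch was not tested. With a replicate block 4 genes were called, Eif4g2, Cyp2c29, Tstd1 and Cym (-2.93, adjusted p = 9.26e-05). Across its alternatives Eif4g2 lay between -0.69 and -0.63 and was called in all but the fit on all libraries. The 15 other called genes were never reversed and lost their call in 133 of 225 fits. Second-copy loss called 6200 genes with the block and 1137 with all libraries, and from 5901 to 6776 with 1 library left out. The first organoid set called 6622 genes with its lines as a block, and from 3672 to 6770 with 1 library left out. Flox/+ spheroids called 1 gene with the line as a replicate block and 0 otherwise. List medians moved by less than their spread in 236 of 242 recomputed values. With 1 library left out, the median ran from -0.11 to 0.020 over goblet cell genes, from 0.015 to 0.074 over eIF4F genes, from -0.067 to -0.044 over histone modifiers and from 0.20 to 0.34 over interferon-stimulated genes. After removal of the length trend it was -0.031 over histone modifiers and 0.034 over oxidative phosphorylation. The causes of these changes were not tested. A covariate for Y-linked transcripts could not be fitted because all 12 libraries carried Ddx3y, Eif2s3y, Kdm5d and Uty. Genes near the detection limit, such as Slc16a9, rest on few reads.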
